A study of Homo sapiens with 6 samples.

Results

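The transcription factor NRF2 (gene NFE2L2), its regulators and 6 of its core target genes were followed in NCI-H1703 cells after knockdown of the phosphatase gene PPM1G. The 10 genes were taken by symbol from the deposited table: NFE2L2, KEAP1, BACH1, MAFG, HMOX1, NQO1, GCLM, GCLC, SRXN1 and TXNRD1. All 10 were among its 17534 genes, and all 10 passed the filter on low counts with 13060 genes in all. The labels describe NCI-H1703 as a line from squamous cell carcinoma of the lung. Bulk RNA sequencing was deposited for 3 control libraries, whose genotype label is Sh-NC, and for 3 libraries labelled Sh-PPM1G, in which a short hairpin RNA (shRNA) targeted PPM1G. The series title calls the control cells wild-type, and the label Sh-NC is not spelled out. How many hairpins or clones were used, and whether the libraries of a group came from separate cultures, is not given in the sources used here. P-values therefore measure the spread between these libraries, which may be technical.

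NRF2 is a basic leucine zipper protein that binds antioxidant response elements as a heterodimer with a small MAF protein such as MAFG. In unstressed cells KEAP1 presents NRF2 to a CUL3-RBX1 ubiquitin ligase, which keeps the NRF2 protein short-lived; oxidants and electrophiles modify KEAP1 and release it. BACH1 is a heme-sensitive repressor that competes for the same elements and is best known for holding HMOX1 down. The pathway is known in lung cancer because squamous tumours often carry changes in NFE2L2 or KEAP1. The measurements here are of RNA only, so the stability and location of the NRF2 protein were not seen.

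Library totals ranged from 31337553 to 35838246 counts. PPM1G stood at 145, 135 and 141 FPKM (fragments scaled by gene length and library total) in control libraries 1 to 3 and at 84.9, 91.0 and 88.2 FPKM in PPM1G shRNA libraries 1 to 3, so the transcript was lower in every PPM1G shRNA library without being lost. The transcribed pseudogene FTH1P3 lies within the PPM1G locus, and its part in the remaining level was not tested. Most squamous markers were near absent: TP63 lay at 0.155 to 0.240 FPKM in the control libraries, KRT6A, KRT14, DSG3 and PKP1 had at most 7 counts in any library, and KRT5 was not analysed here. SOX2, which squamous tumours often amplify, was present at 8.37 to 9.44 FPKM in the control libraries and 4.10 to 4.63 FPKM in the PPM1G shRNA libraries. The lung lineage factor gene NKX2-1, more usual in adenocarcinoma, lay at 43.2 to 49.0 FPKM in the control libraries and 50.4 to 55.6 FPKM in the PPM1G shRNA libraries, which did not pass edgeR's test (log2 fold change 0.09, adjusted p = 0.064). Of the same list, NAPSA had 68 to 83 counts in the control libraries and 721 to 803 in the PPM1G shRNA libraries, SFTPB had at most 3 counts and SFTPC 0. The summed level of the leukocyte markers was 704 to 736 FPKM in the control libraries and 335 to 353 FPKM in the PPM1G shRNA libraries; CD68, a lysosomal protein gene, made up nearly all of it, while PTPRC had at most 5 counts in any library. The sum of 5 fibroblast markers was 26.1 to 28.9 FPKM in the control libraries and 62.2 to 63.3 FPKM in the PPM1G shRNA libraries. COL1A1 carried it, with means of 25.2 and 60.1 FPKM, and PDGFRB went from 0.665 to 1.71 FPKM on average. COL1A2 went the other way, from 1.22 to 0.808 FPKM on average (log2 fold change −0.69, edgeR adjusted p = 4.2e-05). DCN had at most 15 counts in any library and LUM at most 1. The part of these marker shifts in the results below was not tested. In bulk RNA, a change in the share of cells that express a gene and a change in RNA per cell cannot be told apart.

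The first comparison asked whether the transcripts of the NRF2 system differed between PPM1G shRNA and control cells. All 10 genes were higher in the PPM1G shRNA libraries and all 10 passed edgeR's quasi-likelihood test at an adjusted p under 0.05, by 1.18-fold for KEAP1 up to 6.77-fold for HMOX1. The lowest PPM1G shRNA library lay above the highest control library for 10 of 10 genes. Among all genes tested, 82.9% changed in either direction and 41.5% rose, 83.7% were separated without overlap in either direction and 41.9% with the PPM1G shRNA libraries higher. A rise was therefore common in this comparison. A rise of at least 2-fold was called for 6 of the 10 genes, beside 11.8% of all genes tested. The median log2 fold change was 1.29 over the 10 genes and 0.01 over all genes tested. Below, FPKM gives levels per gene length, scaled by library total, and fold changes are from edgeR on counts scaled by trimmed mean of M values (TMM). With library totals in place of TMM the median of all genes moved from 0.01 to 0.12, and the log2 fold change of KEAP1, the smallest of the 10, from 0.24 to 0.34.

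**Figure D1:**
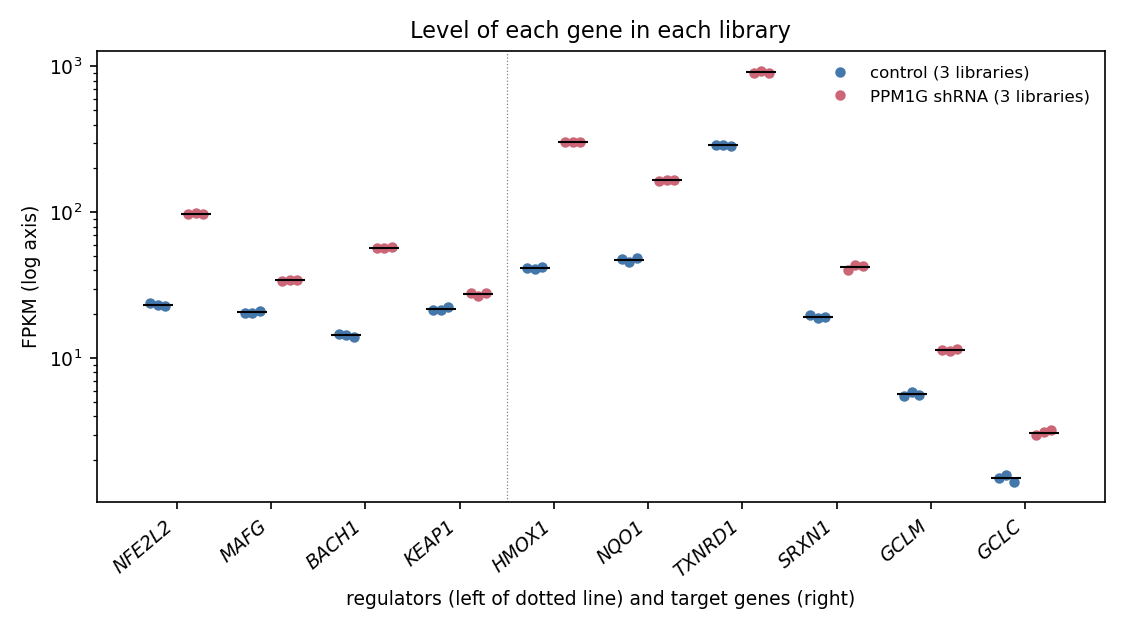
FPKM of the 10 genes in each library, on a log axis, with regulators left of the dotted line and targets right of it; points are libraries, and black lines are means of 3. The red points (PPM1G shRNA) lie above the blue points (control) for all 10 genes, and the gap is smallest for KEAP1 and largest for HMOX1.

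Among the regulators, the activator gene NFE2L2 (Entrez 4780; chromosome 2, positions 177230303 to 177264727 on GRCh38) stood at 24.1, 23.2 and 22.7 FPKM in control libraries 1 to 3 and at 97.3, 98.9 and 98.0 FPKM in PPM1G shRNA libraries 1 to 3. The groups lay far apart, and each was tight. NFE2L2 rose by 1.97 on the log2 scale (SE 0.03), or 3.92-fold (edgeR adjusted p = 2.8e-31). Of all genes tested, 2.70% rose at least as much.

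BACH1 (Entrez 571; chromosome 21, 29298922 to 29361894), the repressor of the same elements, moved by nearly the same factor. It stood at 14.67, 14.42 and 13.97 FPKM in the control libraries and at 57.2, 57.1 and 57.5 FPKM in the PPM1G shRNA libraries. Its log2 fold change was 1.90 (SE 0.03; edgeR adjusted p = 3.1e-31). Activator and repressor transcripts thus rose side by side.

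MAFG (Entrez 4097; chromosome 17, 81918270 to 81931244) encodes the small MAF protein that pairs with NRF2 and with BACH1, and it rose less. Control libraries gave 20.6, 20.4 and 21.1 FPKM and PPM1G shRNA libraries gave 33.9, 34.6 and 34.5 FPKM, with no overlap. Its log2 fold change was 0.63 (SE 0.03; edgeR adjusted p = 9.2e-18). The MAFG locus overlaps the non-coding RNA genes MAFG-AS1 and MILIP, and without a stated strand setting their reads cannot be told apart.

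KEAP1 (Entrez 9817; chromosome 19, 10486125 to 10503356), the adaptor that marks NRF2 for degradation, changed least. It stood at 21.4, 21.4 and 22.6 FPKM in the control libraries and at 27.8, 26.9 and 28.1 FPKM in the PPM1G shRNA libraries. The log2 fold change was 0.24 (SE 0.04; edgeR adjusted p = 4.9e-06), and 38.4% of all genes tested rose at least as much, so KEAP1 sat well inside the spread of the whole transcriptome.

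Ratios within a library do not depend on how libraries are scaled. The ratio of NFE2L2 to KEAP1 FPKM was 1.07 ± 0.063 (SD, n = 3) in the control libraries and 3.55 ± 0.11 (SD, n = 3) in the PPM1G shRNA libraries. On the log2 scale the difference was 1.73, with an exact two-sided permutation p of 0.1, the smallest that 3 libraries against 3 can give. The ratio of NFE2L2 to BACH1 FPKM was 1.63 ± 0.017 in the control libraries and 1.71 ± 0.017 in the PPM1G shRNA libraries, a log2 difference of 0.07 (exact two-sided permutation p = 0.1). The 3 values of each group did not overlap there either, but the size of the shift was small. The other ratio, GCLM to GCLC, is described with those genes, and Benjamini-Hochberg adjustment over the 3 ratios cannot bring any of them under 0.1.

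**Figure D2:**
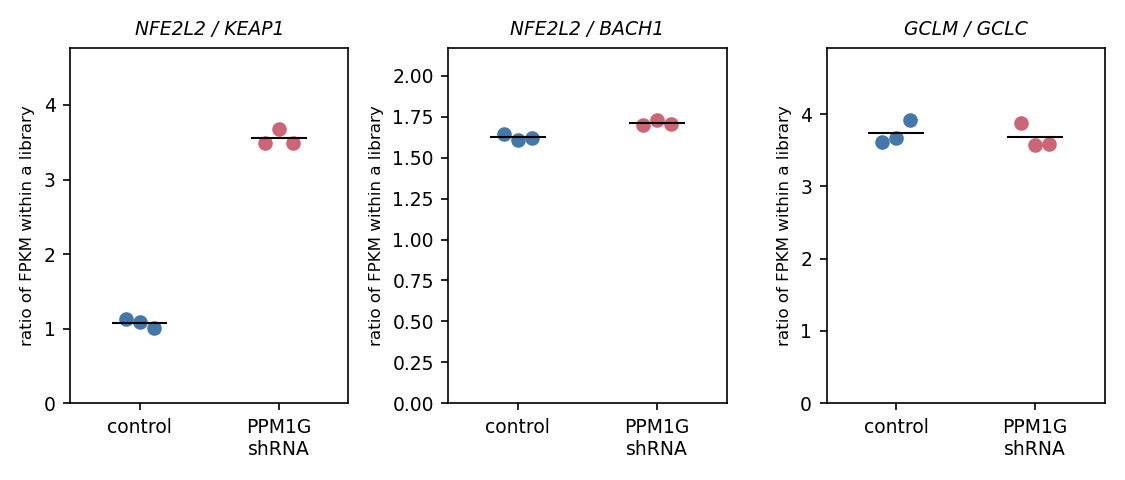
Ratio of FPKM values within each library for NFE2L2 over KEAP1, NFE2L2 over BACH1 and GCLM over GCLC, on linear axes that start at 0; points are libraries and black lines are means of 3. NFE2L2 over KEAP1 moves from about 1.07 to 3.55, while the other ratios stay close to their control values.

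HMOX1 (Entrez 3162; chromosome 22, 35381096 to 35394207), the inducible heme oxygenase that breaks heme down to biliverdin, iron and carbon monoxide, had the largest rise of the targets. It stood at 41.9, 41.2 and 42.0 FPKM in control libraries 1 to 3 and at 301, 303 and 303 FPKM in PPM1G shRNA libraries 1 to 3. The log2 fold change was 2.76 (SE 0.03; edgeR adjusted p = 2.0e-35), and 0.72% of all genes tested rose at least as much. The libraries of each group were nearly level with each other.

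NQO1 (Entrez 1728; chromosome 16, 69709401 to 69726560), which reduces quinones by 2 electrons, stood at 48.0, 45.4 and 49.1 FPKM in the control libraries and at 165, 167 and 168 FPKM in the PPM1G shRNA libraries. It rose 3.27-fold (log2 fold change 1.71, SE 0.03; edgeR adjusted p = 4.8e-30), and its groups lay far apart. The overlapping antisense gene NQO1-AS1 cannot be separated without a strand setting.

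TXNRD1 (Entrez 7296; chromosome 12, 104215779 to 104350307), the selenoprotein that reduces cytosolic thioredoxin with NADPH, was the most abundant of the 10 genes per gene length. It stood at 288, 289 and 287 FPKM in the control libraries and at 895, 926 and 908 FPKM in the PPM1G shRNA libraries. This one gene took 0.113% of all counts in the control libraries and 0.358% in the PPM1G shRNA libraries. It rose 2.95-fold (log2 fold change 1.56, SE 0.02; edgeR adjusted p = 3.6e-32). The protein-coding gene EID3, the pseudogene RPL18AP3 and TXNRD1-AS1 lie within the locus.

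SRXN1 (Entrez 140809; chromosome 20, 646615 to 653200) encodes sulfiredoxin, which repairs over-oxidised peroxiredoxins. Control libraries gave 19.9, 18.9 and 19.2 FPKM and PPM1G shRNA libraries gave 40.2, 43.5 and 42.8 FPKM. The rise was 2.04-fold (log2 fold change 1.03, SE 0.04; edgeR adjusted p = 1.7e-20), without overlap. A non-coding RNA gene overlaps the locus and a pseudogene, SRXN1P1, may share reads with it.

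Glutamate-cysteine ligase makes the first and rate-limiting step of glutathione synthesis, and its genes rose in parallel. GCLM (Entrez 2730; chromosome 1, 93885199 to 93909430), the modifier subunit, stood at 5.51, 5.87 and 5.58 FPKM in the control libraries and at 11.5, 11.2 and 11.5 FPKM in the PPM1G shRNA libraries. GCLC (Entrez 2729; chromosome 6, 53497341 to 53545101), the catalytic subunit, had the lowest level of the 10 genes, with 186, 195 and 175 counts in the control libraries and 319, 385 and 396 counts in the PPM1G shRNA libraries, or 1.52 ± 0.087 and 3.10 ± 0.13 FPKM (SD, n = 3). Both sets of libraries were separated without overlap.

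The log2 fold changes were 0.91 for GCLM (SE 0.05; edgeR adjusted p = 2.3e-18) and 0.93 for GCLC (SE 0.11; edgeR adjusted p = 1.6e-09). The SE of GCLC was the largest of the 10. The ratio of GCLM to GCLC FPKM was 3.74 ± 0.16 (SD, n = 3) in the control libraries and 3.68 ± 0.17 (SD, n = 3) in the PPM1G shRNA libraries. Their log2 difference of −0.02 was smaller than the spread between libraries (exact two-sided permutation p = 0.5). The antisense gene GCLC-AS1 overlaps GCLC.

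**Figure D3:**
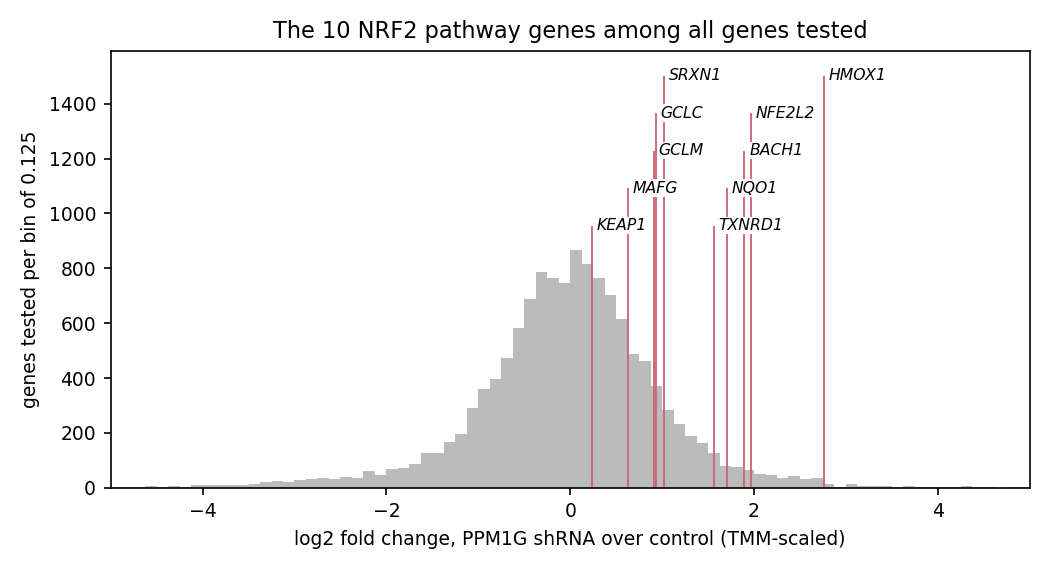
Histogram of log2 fold changes (PPM1G shRNA over control) of all 13060 genes tested, with a red line at each of the 10 genes; line heights only separate the names. KEAP1 at 0.24 lies in the body of the histogram, whereas HMOX1 at 2.76 lies in its right tail.

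The order of the levels changed with the knockdown. In the control libraries the order by mean FPKM was TXNRD1, NQO1, HMOX1, NFE2L2, KEAP1, MAFG, SRXN1, BACH1, GCLM and GCLC. NFE2L2, KEAP1, MAFG and SRXN1 stood close together, from 23.3 down to 19.3 FPKM on average, although no neighbours overlapped: the lowest NFE2L2 library had 22.7 FPKM and the highest KEAP1 library 22.6 FPKM. In the PPM1G shRNA libraries the order was TXNRD1, HMOX1, NQO1, NFE2L2, BACH1, SRXN1, MAFG, KEAP1, GCLM and GCLC, again with no overlap between neighbours. HMOX1 passed NQO1, BACH1 passed SRXN1, MAFG and KEAP1, SRXN1 passed MAFG, and KEAP1 dropped below MAFG and SRXN1. Levels of different genes depend on the single length per gene that the deposited FPKM values used.

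The wider pathway did not move as one. Across 8 further lists of pathway genes, written from textbook knowledge, 103 of 111 genes were tested, of which 44 rose, 44 fell and 15 did not pass. Their median log2 fold change was 0.00, beside 0.01 over all genes tested, where 41.5% rose and 41.3% fell. The share that rose was thus near the background over these lists. Both the 10 genes above and these lists were chosen with earlier results of these data known, so the lists are not an independent check.

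**Figure D4:**
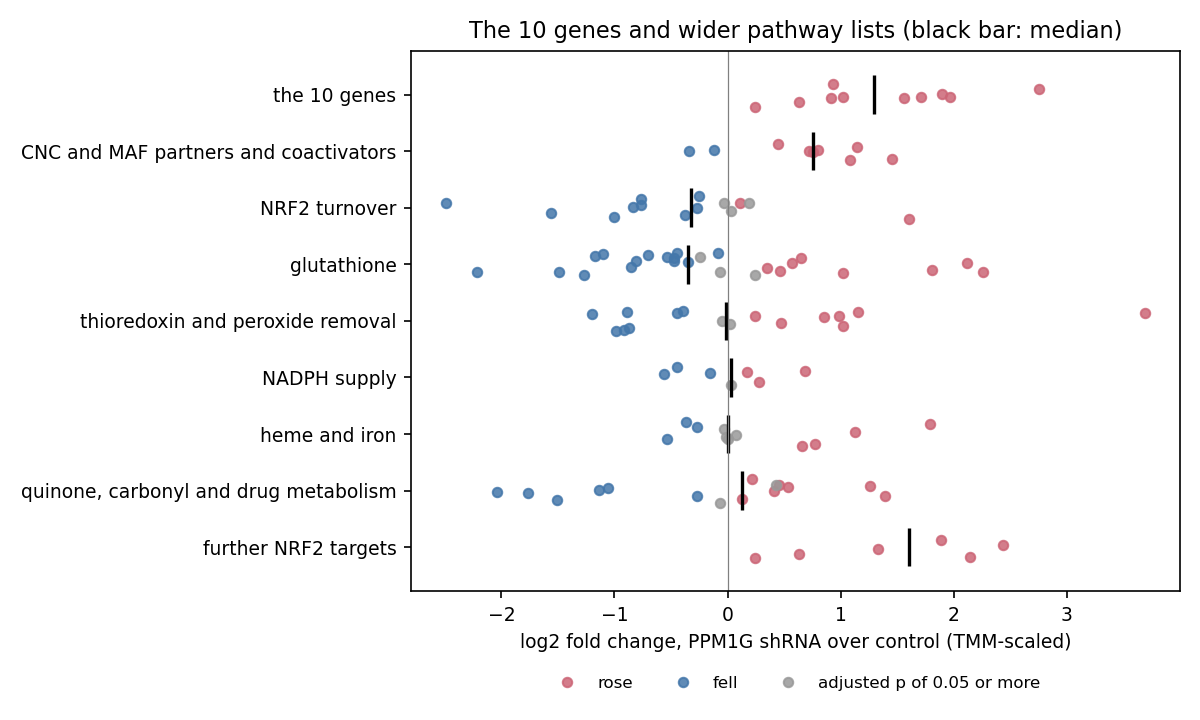
Log2 fold change (PPM1G shRNA over control) of each tested gene of the 10 genes and of 8 wider lists; red points rose, blue points fell, grey points had an adjusted p of 0.05 or more, black bars are medians, and vertical scatter only separates points. The median is 1.29 for the 10 genes and 1.61 for the further NRF2 targets, while the glutathione and turnover lists have medians below 0.

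Genes that act in NRF2 turnover mostly fell. Of 14 tested, 9 fell, 2 rose and 3 did not pass, with a median log2 fold change of −0.32. Among all genes tested, 41.3% fell. RBX1, the RING subunit of the KEAP1 ligase, fell by 1.56 (SE 0.08), from 20.1 ± 0.80 to 7.30 ± 0.74 FPKM (SD, n = 3). CUL3, the scaffold of that ligase, fell by 1.00 (SE 0.04), from 13.7 to 7.31 FPKM on average; it was named after its value was seen. DPP3, a peptidase known to bind KEAP1 in competition with NRF2, fell by 2.49 (SE 0.09), from 9.43 ± 0.79 to 1.79 ± 0.14 FPKM. SQSTM1, the autophagy receptor that captures KEAP1 and is itself an NRF2 target, rose by 1.61 (SE 0.03), from 290 ± 9.8 to 949 ± 6.0 FPKM. The edgeR adjusted p of these 4 genes ranged from 1.2e-31 to 1.4e-17.

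Of 9 genes for partner factors and coactivators, 7 rose and 2 fell, with a median of 0.76, while 41.5% of all genes tested rose. BACH2, the lymphoid relative of BACH1, rose by 1.45 (SE 0.08) at a low level, from 0.503 ± 0.050 to 1.47 ± 0.046 FPKM, and by 0.72 in the fit on log2(FPKM + 1). NFE2, the erythroid relative of NRF2, rose by 1.15 (SE 0.19), from 0.960 ± 0.23 to 2.28 ± 0.14 FPKM. The small MAF gene MAFK rose by 1.08 (SE 0.04), from 13.5 ± 0.54 to 30.7 ± 1.1 FPKM, so that it came close to MAFG. The 2 genes that fell were MAFF, by 0.34 (SE 0.09), and NFE2L3, by 0.12 (SE 0.05; edgeR adjusted p = 0.035), both named after their values were seen. NFE2L3 lost its call under 9 of 16 alternatives, DESeq2 and library totals among them.

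Genes of glutathione synthesis and use moved in both directions. Of 25 tested genes, 8 rose and 14 fell, with a median of −0.35, while 41.5% of all genes tested rose and 41.3% fell. SLC3A2, the heavy chain of the cystine transporter, rose by 2.11 (SE 0.03), from 50.6 ± 2.9 to 235 ± 4.5 FPKM, and CHAC1, a glutathione-degrading enzyme, rose by 2.26 (SE 0.16) at a low level, from 0.385 ± 0.063 to 1.98 ± 0.19 FPKM, and by 1.10 in the fit on log2(FPKM + 1). GGCT, a cyclotransferase that acts on gamma-glutamyl amino acids, fell by 2.22 (SE 0.10), from 20.4 ± 0.54 to 4.37 ± 0.88 TMM-scaled CPM, that is, counts scaled to a common library size. GSS, which encodes the synthetase that follows glutamate-cysteine ligase, was named after its value was seen; it fell by 0.85 (SE 0.04), from 41.5 to 24.7 FPKM on average.

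The thioredoxin and peroxide genes were split evenly, with 7 rises and 7 falls among 16 and a median of −0.01. Over the alternatives the median ranged from −0.03 to 0.09. For comparison, 41.5% of all genes tested rose and 41.3% fell. TXNIP, the inhibitor of thioredoxin, rose by 3.69 (SE 0.10), from 39.5 ± 4.9 to 547 ± 2.8 FPKM. The catalase gene CAT rose by 1.15 (SE 0.04), from 20.5 ± 0.52 to 48.8 ± 0.84 FPKM. PRDX1, an abundant peroxiredoxin and a substrate of sulfiredoxin, fell by 1.20 (SE 0.03), from 331 ± 15 to 155 ± 3.7 FPKM. TXN, the thioredoxin that TXNRD1 reduces, was named after its value was seen; it fell by 0.87 (SE 0.04), from 202 to 119 FPKM on average. Relative to the control mean of TMM-scaled CPM, TXNRD1 stood at 2.91, 3.00 and 2.94 in PPM1G shRNA libraries 1 to 3 and TXN at 0.552, 0.548 and 0.540. SRXN1 stood at 1.94, 2.10 and 2.06 and PRDX1 at 0.426, 0.444 and 0.438. Reductase and repair enzyme transcripts thus rose while those of the named substrates TXN and PRDX1 fell, in 3 of 3 libraries. Such separation was common, since 83.7% of all genes tested had groups without overlap in either direction.

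**Figure D5:**
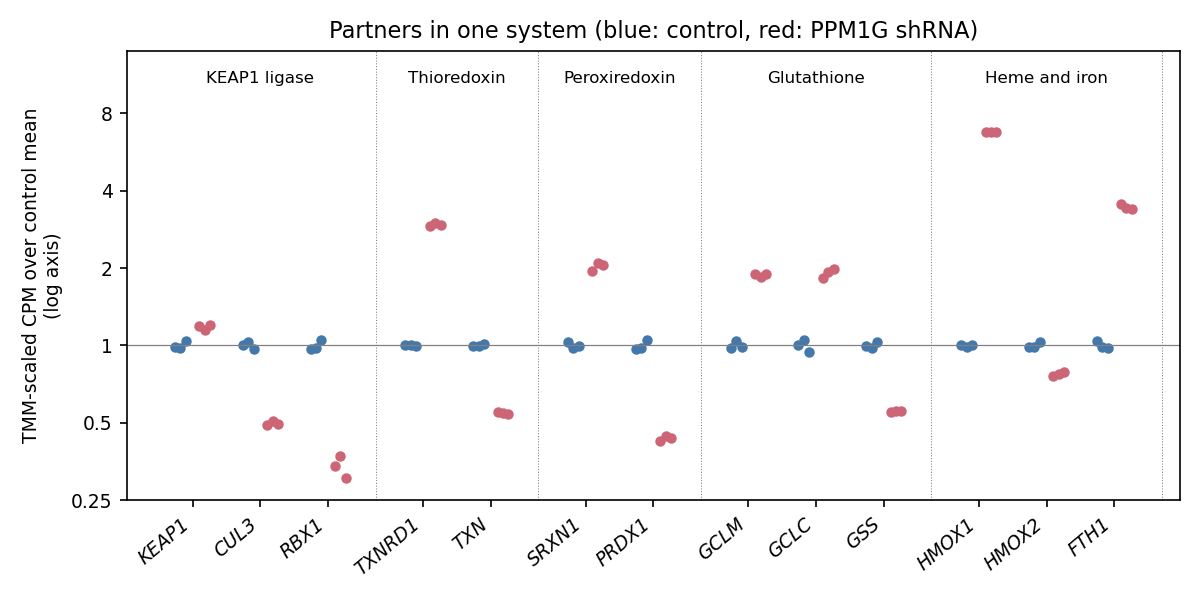
TMM-scaled CPM of partner genes in 5 systems, each divided by its control mean, on a log axis; blue points are control and red points PPM1G shRNA libraries. In the PPM1G shRNA libraries TXNRD1, SRXN1, GCLM, GCLC and HMOX1 lie above 1 while TXN, PRDX1, GSS and HMOX2 lie below it, as do CUL3 and RBX1 beside KEAP1; FTH1, the other partner of HMOX1, lies above 1 at 3.39 to 3.54.

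Genes of NADPH supply were also divided, with 3 rises, 3 falls and 1 gene that did not pass, and a median of 0.03. For this list and the next, the shares over all genes tested were 41.5% rising and 41.3% falling. ME1, the cytosolic malic enzyme, rose by 0.68 (SE 0.05), from 8.47 ± 0.22 to 14.6 ± 0.34 FPKM. The pentose phosphate genes TALDO1 and PGD fell by 0.56 (SE 0.04) and by 0.45 (SE 0.04). In heme and iron handling, 4 of 11 genes rose and 3 fell, with a median of 0.00 (−0.01 to 0.10 over the alternatives). The ferritin genes FTH1 and FTL, which store the iron that heme oxygenase releases, rose by 1.79 (SE 0.03) and by 1.13 (SE 0.02). FTH1 went from 1938 ± 73 to 7175 ± 145 FPKM (SD, n = 3) and has pseudogenes that may share its reads. FLVCR1, a heme exporter gene, rose by 0.77 (SE 0.11). The constitutive oxygenase gene HMOX2, named after its value was seen, fell by 0.37 (SE 0.05).

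Quinone, carbonyl and drug metabolism genes had 7 rises and 6 falls among 15, while 41.5% of all genes tested rose and 41.3% fell. The median of 0.13 turned negative under 4 of 16 alternatives, down to −0.09 without control replicate 2. The transporter gene ABCC3 rose by 1.39 (SE 0.04), from 7.91 ± 0.32 to 22.2 ± 0.17 FPKM. The carbonyl reductase gene CBR1 fell by 2.04 (SE 0.05), from 37.8 ± 1.4 to 9.85 ± 0.22 FPKM. AKR1C1, known as an NRF2 target, fell by 1.51 (SE 0.06), from 33.8 ± 3.6 to 12.8 ± 0.33 FPKM; its near-identical relatives may share its reads. NQO1 and AKR1C1 thus moved in opposite directions in the same libraries.

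Of 8 further NRF2 targets, the 6 that were tested all rose, with a median of 1.61, while 41.5% of all genes tested rose. This list was written with earlier results of these data known, so its uniform rise is a description only. Of the genes called NRF2 targets in the other lists above, SQSTM1 rose and AKR1C1 fell. TRIM16L and TRIM16, similar genes that may share reads, rose by 2.43 (SE 0.06) and by 1.88 (SE 0.05). SESN2, a stress-induced sestrin gene, rose by 2.15 (SE 0.05), from 6.11 ± 0.46 to 29.0 ± 1.1 FPKM. SESN2, CHAC1 and the cystine transporter genes are known to be activated by ATF4 as well. Of 5 genes listed for the ATF4 pathway, 4 were tested and all 4 rose: DDIT3 by 3.68 (SE 0.08), ATF3 by 3.34 (SE 0.05), ASNS by 2.75 (SE 0.03), and ATF4 itself, named after its value was seen, by 1.88 (SE 0.03). Their part in the rises of the NRF2 genes was not tested. Beside these 4 genes, 41.5% of all genes tested rose and 11.8% rose at least 2-fold. The ATF4 list was also written with earlier results of these data known. Passing edgeR's test over all genes tested was a condition for naming a gene from a list by rule. The list genes named after their values were seen passed it too.

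Over the 6 libraries, the genes whose log2 CPM were most like those of NFE2L2 were RAP1GAP, BAMBI and LGALS3, with Pearson r above 0.9999 each as a description. RAP1GAP went from 1.09 ± 0.044 to 9.88 ± 0.13 FPKM, BAMBI from 46.1 ± 1.2 to 202 ± 2.6 FPKM and LGALS3 from 86.8 ± 2.7 to 301 ± 4.0 FPKM (SD, n = 3). With 2 groups of libraries such likeness is common: 1681 of 10031 genes (16.8%) had an r of at least 0.99.

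Promoter sequence was compared because the genes rose together. RefSeq windows on GRCh38.p14, from 250 bases before to 50 bases after a transcription start, were at hand for 9 of the 10 genes, as 14 windows; HMOX1 had no entry. They were searched on both strands for TGACNNNGC, the core of the antioxidant response element. It was present in windows of 3 of the 9 genes, GCLM, TXNRD1 and KEAP1, beside 19.3% of the 10751 tested genes with a window and 13.3% of all 35116 windows. The stricter form TGACTCAGC, which contains the AP-1 motif TGANTCA, was in none of the windows of the 9 genes. It was held by 0.688% of the tested genes with a window and by 0.561% of all windows. TGANTCA itself was in 1 of the 9 genes, BACH1, beside 7.32% of the tested genes with a window and 7.71% of all windows. No match says only that these letters are not in the window.

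The matches are shown with 10 bases on each side, on the strand of the gene and 5′ to 3′, to let the sites be compared; capitals mark the match, and positions count from the transcription start.
GCLM, chr1:93909446-93909474, minus strand, match from −34 to −26: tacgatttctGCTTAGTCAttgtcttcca
KEAP1, chr19:10502784-10502812, minus strand, match from −31 to −23: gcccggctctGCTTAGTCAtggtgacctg
KEAP1, chr19:10502807-10502835, minus strand, match from −54 to −46: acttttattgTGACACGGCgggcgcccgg
TXNRD1, chr12:104286920-104286948, plus strand, match from −102 to −94: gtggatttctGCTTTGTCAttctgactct
TXNRD1, chr12:104215670-104215698, plus strand, match from −99 to −91: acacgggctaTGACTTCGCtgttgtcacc
TXNRD1, chr12:104215761-104215789, plus strand, match from −8 to 1: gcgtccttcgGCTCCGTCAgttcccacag

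GCLM and KEAP1 share the same 9 letters at nearly the same distance from a start, yet GCLM rose 1.88-fold and KEAP1 1.18-fold. Both KEAP1 matches belong to a start inside the gene, as does the TXNRD1 match from −102 to −94. The 250 bases before the GCLM start (chr1:93909431-93909680, minus strand) are shown because they hold the only match of that gene, in capitals.
GCLM: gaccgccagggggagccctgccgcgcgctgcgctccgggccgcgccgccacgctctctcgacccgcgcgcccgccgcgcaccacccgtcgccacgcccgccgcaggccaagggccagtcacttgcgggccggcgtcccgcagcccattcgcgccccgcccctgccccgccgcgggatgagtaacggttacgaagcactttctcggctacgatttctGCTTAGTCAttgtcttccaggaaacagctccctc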

How the data were processed

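The 6 libraries were made from total RNA, extracted on Qiagen columns, with SMARTER mRNA-seq chemistry, per the labels. The deposited counts are whole numbers of reads for each gene and were not normalized, judging from the values. The deposited FPKM values are those counts scaled by a fixed gene length and the total of the library. The build is GRCh38 per the submitters' processing notes. No aligner, counting program, annotation or strand setting is given in the sources used here.

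Genes kept by edgeR's filterByExpr (minimum count 10) were fitted with edgeR 4.0.16 in R 4.3.3 (TMM scaling, robust quasi-likelihood F-test, a single term for the group). P-values were adjusted by the Benjamini-Hochberg method across every tested gene and called at 0.05, and the SE of a log2 fold change is its size divided by the square root of F. Alternatives used DESeq2 1.42.0, limma 3.58.1 with voom, and limma on log2(FPKM + 1) and log2(FPKM + 0.1). The 10 genes and all lists were chosen with earlier results of these data known. Named from each list were up to 3 called genes that moved most on the log2 scale, if their mean log2 CPM reached 1, and, among genes whose mean log2 CPM reached 3, the 3 with the highest Pearson r to NFE2L2. Other genes were named after their values were seen, and the text says so. The labels give no batch or date. Gene positions came from a RefSeq table on GRCh38.p14. On data simulated for this comparison over 12809 genes, the fit recovered 82% of 50 genes changed 1.25-fold and 98% of 50 changed 2-fold. Only 196 genes were called in the simulation, 6 of them unchanged, against 10821 in the real data. Its changed genes were also all above a low level, so these rates need not hold for the real comparison.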

Additional observations from a re-analysis of the deposited data

How the results depend on the processing

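Under 16 alternatives (DESeq2, limma-voom, 3 other scalings, 2 other filters, the replicate block, 2 fits on FPKM and each library left out in turn) all 10 genes kept an adjusted p under 0.05 and a rise, and all 656 alternative values of the 41 genes named by rule kept their direction and side of the threshold. Of 128 values of 8 genes named after their values were seen (CUL3, MAFF, NFE2L3, GSS, TXN, HMOX2, ATF4 and NAPSA), 119 did. The other 9 were all of NFE2L3, whose adjusted p was 0.73 with library totals and 0.054 with DESeq2. Genes named by rule from the lists were picked because they passed and moved most, so they were likely to keep their call. The log2 fold change of KEAP1 ranged from 0.22 to 0.34, that of NFE2L2 from 1.95 to 2.07 and that of HMOX1 from 2.75 to 2.86. The number of genes changed was 10821 in the fit reported and 10531 to 10836 with 1 library left out. With the replicate number as a block, 10805 genes and all 10 of the NRF2 genes changed. Same-numbered libraries did not deviate together (correlations of 0.014, −0.020 and 0.0036). These values show no sign that the numbers pair the libraries, but they cannot exclude it. The log2 difference in the GCLM to GCLC ratio turned from −0.02 to 0.19 with 1 added to each FPKM, which weighs on the low GCLC values, and lay between −0.060 and 0.012 with 1 library left out, being 0.012 without control replicate 3. The median of the quinone, carbonyl and drug metabolism list ranged from −0.09 to 0.23, being negative with DESeq2, with no filter, without control replicate 2 and without PPM1G shRNA replicate 2, and 1 to 3 genes of the turnover list rose. In the fit on log2(FPKM + 1), which shrinks low genes, BACH2 rose by 0.72, NFE2 by 0.75, CHAC1 by 1.10 and RAP1GAP by 2.38, and DPP3 fell by 1.90. Depth limits GCLC most among the 10 genes. No spike-in values were analysed, so all levels are relative within a library.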

Other observations

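Across all genes, the antioxidant response element core in the promoter window went with little difference in response. Of 10751 tested genes with a RefSeq window, 2076 held TGACNNNGC, of which 893 rose and 830 fell. The share that rose was 43% among them and 41.2% among all tested genes with a window. Their median log2 fold change was 0.05, beside 0.01 for all genes with a window. The stricter TGACTCAGC was held by 74 tested genes, of which 35 rose and 32 fell, with a median of 0.07. The windows reach 250 bases before the start, and elements farther away were not searched.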
